A study of Mus musculus with 2 samples.

Results

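T cell receptor and PI3K signalling is described here at 47 named genes, set against a map of a histone mark in CD8+ T cells. The mark is H3K9bhb, histone H3 carrying a β-hydroxybutyryl group on lysine 9, which cells make from the ketone body β-hydroxybutyrate. A gene has a peak here if any summit of the deposited H3K9bhb peak list falls inside it or no more than 5 kb beyond either end. By that rule 7 of the 47 genes had a peak (14.9%, exact Clopper-Pearson 95% interval 6.20 to 28.3, covering counting error only), against 11.4% of 21900 protein-coding genes (2489 genes). That share lay close to the background.

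The series holds 1 ChIP library and 1 input DNA library of CD8+ memory T cells from spleen, strain C57BL/6, and the peak list belongs to the ChIP library. OT-I splenocytes carry a transgenic T cell receptor for an ovalbumin peptide. They received this peptide (200 ng/ml) together with IL-2 (10 ng/ml) for 3 days, then IL-15 (10 ng/ml) for another 4 days. The memory-like cells obtained in this way were treated for 3 days with β-hydroxybutyrate, at a dose not given in the sources used here. Each library is given as 70 M reads. Neither an untreated culture nor a replicate of the ChIP was analysed here. Peaks therefore show where the mark was called in treated cells and not what the treatment changed, and no test or p-value is given.

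The peak list held 2204 peaks with 2315 summits. Each summit carries the authors' score, a −log10 p or q value, used here only to rank peaks within the list. Peak scores ran from 2.01 to 1167.46, with a median of 5.04, a lower quartile of 3.33 and an upper quartile of 6.78. On chromosomes for which transcription starts were listed, 64.7% of 2139 nuclear peaks lay within 500 bp of a listed start of a protein-coding gene and 72.9% within 2 kb. Only 2.62% lay within 2 kb of a transcript end and over 2 kb from a listed start. Another 9 peaks fell on mitochondrial DNA, which has no histones, so being called is not proof of the mark. Of 8 genes that mark CD8+ T cells (the CD3 chains, Cd247, Cd8a, Cd8b1, Cd2 and Cd5) 0 had a peak. Of 20 markers of CD4 T cells, B cells, myeloid cells and NK cells 0 had one. The share over all protein-coding genes was 11.4%, so a count of 0 of 8 lies near the background. A gene without a peak in this list can still be one that defines the cells, and these marker counts do not tell the cell types apart.

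When a T cell receptor binds its ligand, the Src family kinases Lck and Fyn phosphorylate the receptor chains, and the kinase Zap70 docks there and phosphorylates the scaffolds Lat and Lcp2 (SLP-76). The scaffolds gather the phospholipase Plcg1, whose products release calcium from stores and switch on Ras and protein kinase C, while PI3K makes a membrane lipid that recruits Pdpk1 and Akt, which in turn inhibit the Tsc complex that restrains mTORC1. Phosphatases, ubiquitin ligases and diacylglycerol kinases end the signal, and memory CD8+ T cells are known for relaying it quickly when antigen returns.

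Promoter sequences are shown for the 4 genes whose summit lay within 500 bp of a listed start, and for Lck and Zap70, the kinases that open the cascade, which had no peak. Each is the RefSeq promoter of build GRCm38.p6, 250 bases before to 50 bases after the start, 5′ to 3′ on the strand of the gene. Capitals mark CpG dinucleotides, whose content is compared over all promoters further on. The windows were picked by position and gene and do not stand for all members.
Plcg1, chr2:160731060-160731359, plus strand: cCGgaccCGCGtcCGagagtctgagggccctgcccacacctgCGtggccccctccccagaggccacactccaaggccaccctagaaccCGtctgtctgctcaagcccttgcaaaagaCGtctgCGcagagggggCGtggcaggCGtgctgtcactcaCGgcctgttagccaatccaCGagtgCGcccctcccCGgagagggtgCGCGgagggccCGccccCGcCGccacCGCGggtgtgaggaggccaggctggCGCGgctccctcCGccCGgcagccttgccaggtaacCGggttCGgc
Pik3r1, chr13:101768168-101768467, minus strand: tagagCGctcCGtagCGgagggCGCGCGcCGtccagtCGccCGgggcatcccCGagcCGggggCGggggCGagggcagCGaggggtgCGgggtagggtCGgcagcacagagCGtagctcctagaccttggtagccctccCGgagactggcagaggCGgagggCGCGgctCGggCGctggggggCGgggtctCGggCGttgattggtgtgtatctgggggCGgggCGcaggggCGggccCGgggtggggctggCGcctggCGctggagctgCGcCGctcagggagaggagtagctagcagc
Pdpk1, chr17:24141545-24141844, minus strand: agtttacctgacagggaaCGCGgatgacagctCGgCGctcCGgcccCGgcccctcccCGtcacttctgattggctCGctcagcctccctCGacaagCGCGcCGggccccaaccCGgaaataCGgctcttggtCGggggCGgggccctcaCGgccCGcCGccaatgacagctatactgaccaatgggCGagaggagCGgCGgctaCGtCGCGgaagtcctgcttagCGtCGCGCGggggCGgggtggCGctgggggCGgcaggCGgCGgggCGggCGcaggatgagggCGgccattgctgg
Cbl, chr9:44233997-44234296, minus strand: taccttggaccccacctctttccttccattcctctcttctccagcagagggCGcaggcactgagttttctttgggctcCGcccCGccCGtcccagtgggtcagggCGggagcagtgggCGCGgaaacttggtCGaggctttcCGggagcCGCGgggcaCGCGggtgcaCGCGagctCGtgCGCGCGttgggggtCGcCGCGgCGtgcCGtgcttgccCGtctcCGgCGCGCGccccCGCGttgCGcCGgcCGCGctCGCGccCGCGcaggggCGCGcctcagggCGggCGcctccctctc
Lck, upstream start, chr4:129573592-129573891, minus strand: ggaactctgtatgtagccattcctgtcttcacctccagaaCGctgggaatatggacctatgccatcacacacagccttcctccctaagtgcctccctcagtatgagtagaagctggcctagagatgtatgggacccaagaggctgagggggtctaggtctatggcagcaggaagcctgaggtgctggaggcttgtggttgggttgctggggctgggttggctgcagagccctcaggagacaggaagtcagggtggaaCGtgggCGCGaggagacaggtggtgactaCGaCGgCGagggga
Lck, downstream start, chr4:129558323-129558622, minus strand: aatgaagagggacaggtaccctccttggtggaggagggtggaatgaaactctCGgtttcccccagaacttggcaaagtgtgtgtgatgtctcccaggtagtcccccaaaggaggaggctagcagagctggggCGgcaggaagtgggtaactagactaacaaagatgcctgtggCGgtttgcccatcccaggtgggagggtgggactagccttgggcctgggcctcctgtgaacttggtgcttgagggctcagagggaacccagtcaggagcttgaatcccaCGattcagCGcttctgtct
Zap70, outermost of 3 listed starts, chr1:36761548-36761847, plus strand: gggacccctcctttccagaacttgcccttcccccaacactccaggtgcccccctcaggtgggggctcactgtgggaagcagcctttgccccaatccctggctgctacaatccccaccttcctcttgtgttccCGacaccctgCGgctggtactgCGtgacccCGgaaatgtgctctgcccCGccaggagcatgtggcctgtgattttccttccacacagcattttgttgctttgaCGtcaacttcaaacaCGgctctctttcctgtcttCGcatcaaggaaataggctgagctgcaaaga

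Counted along these 300 bases from the 5′ end, the summit lay at position 235 in Plcg1, at 144 in Pik3r1 and at 52 in Pdpk1. In Cbl it lay downstream of the window. The Plcg1, Pik3r1, Pdpk1 and Cbl windows held 27, 34, 37 and 43 CpG, and the windows of the upstream and downstream start of Lck and of Zap70 held 7, 5 and 8. Not all other members followed this order. Without a peak, the Sos2 promoter held 54 CpG and the 3 Vav3 promoters held 33, 40 and 6. With a peak, the 2 promoters of Akt1 held 42 and 8, those of Dgkz 43 and 10, and those of Ubash3b 5 each.

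Among proximal kinases and adaptors, 1 of 16 genes had a peak. It was Plcg1 (chromosome 2, 160731310 to 160775760, plus strand), the phospholipase that turns a membrane lipid into the messengers IP3 and diacylglycerol. Its summit at 160731294 lay 16 bp upstream of the start and scored 4.09, a value reached by 66.5% of all peaks. No other protein-coding gene lay within 5 kb of it. The kinases Lck, Fyn, Zap70 and Txk had no summit within 98.9, 460, 157 and 108 kb of the gene. The summit nearest to Lck was at Kpna6, and that nearest to Zap70 was at Tmem131. The scaffold Lat was 105 kb from a summit, Lcp2 845 kb, and Grap2, the Grb2 relative that joins them, 325 kb. Vav1 and Vav3, exchange factors that shape the cytoskeleton, were 606 and 217 kb away, and the cytoskeletal adaptors Nck1 and Nck2 98.1 and 257 kb. The adaptor Sh2d2a was the closest of the 15 genes without a peak, at 77.7 kb. The branch to NF-κB, made of the kinase Prkcq and the complex partners Bcl10 and Malt1, was 253, 287 and 456 kb from a summit. The branch thus held 6.25% of genes with a peak, against 11.4% of all protein-coding genes. Its median distance to a summit was 235 kb, close to the 222 kb of all protein-coding genes.

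In the Ras branch 0 of 7 genes had a peak. Braf, the kinase below Ras, was the nearest, with a summit 10.5 kb away that lay 155 bp from an end of its neighbour Ndufb2. Nras followed at 34.9 kb, with a summit near an end of Dennd2c, and then the exchange factor Sos2 at 42.9 kb. The adaptor Grb2 was 108 kb away, the GTPase Hras 133 kb and the exchange factor Sos1 187 kb. Rasgrp1, which couples diacylglycerol to Ras in T cells, was the farthest, at 1031 kb.

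The PI3K-Akt-Tsc branch held 3 of 8 genes with a peak, which were Pik3r1, Pdpk1 and Akt1. Pik3r1 (chromosome 13, 101680761 to 101768217, minus strand), which encodes the p85α regulatory subunit that holds the catalytic subunit in check, carried 2 peaks. The summit at 101768324 lay 107 bp upstream of the outer listed start and scored 5.04, a value reached by 50.5% of peaks. The other, at 101694604, lay inside the gene, 1974 bp upstream of a second listed start at 101692630, and scored 6.08, a value reached by 32.3% of peaks. Pik3r1 is known to use separate starts for its long and short protein forms, and both summits lay upstream of a listed start. It was the 1 member with several peaks (2.13% of the 47), against 0.562% of all protein-coding genes.

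Pdpk1 (chromosome 17, 24073680 to 24155619, minus strand), the kinase that activates Akt, had a summit at 24141793. This lay 199 bp upstream of an internal listed start and 13826 bp from the start-side end of the gene. Its score of 2.01 was next to the floor of the list, since 99.95% of peaks reached it. Akt1 (chromosome 12, 112653821 to 112674884, minus strand), the kinase at the centre of the branch, was counted through a summit at 112678996, 4112 bp upstream of its start, with a score of 2.62. That summit lay 156 bp from a listed start of the zinc finger gene Zbtb42, so it was nearer to another gene than to Akt1.

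The catalytic subunits Pik3cd, the form that prevails in lymphocytes, and Pik3ca were 35.3 and 44.6 kb from a summit. Akt2 was 17.5 kb away, Tsc2 45.6 kb and Tsc1 107 kb. The 8 genes of this branch had a median of 26.4 kb from gene to summit, and the medians of the other branches ran from 108 to 312 kb. These medians include the genes with a peak and rest on the same summits, so they are no second result. Nor did they hold gene by gene, as Braf and Stim1, of other branches, lay nearer to a summit than Akt2. Over all 47 members the median was 108 kb, and over all protein-coding genes 222 kb.

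In calcium entry 0 of 5 genes had a peak. Stim1, the sensor of calcium in the endoplasmic reticulum, was 11.5 kb from a summit that lay 129 bp from an end of Rhog. The plasma membrane channels Orai1 and Orai2 were 45.9 and 312 kb away. The IP3 receptors Itpr2 and Itpr1, which release the stores, were 386 and 4525 kb away; the distance of Itpr1 was the largest among the 47 genes. These 2 receptor genes are also long, at 394 and 338 kb.

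Among negative regulators 3 of 11 genes had a peak, which were Cbl, Dgkz and Ubash3b. Cbl (chromosome 9, 44142976 to 44234259, minus strand), a ubiquitin ligase that targets activated receptors and kinases, had the highest score of all members. Its summit at 44233748 lay 298 bp downstream of the listed start and scored 6.78, a value reached by 26.3% of peaks. Dgkz (chromosome 2, 91932822 to 91976443, minus strand), which removes diacylglycerol, had a summit at 91975884, 559 bp inside the start-side end of the gene. The nearest start listed for it lay 12321 bp away. Ubash3b (chromosome 9, 41010760 to 41161692, minus strand), a phosphatase of the TULA family that acts on Zap70 and Syk, had a summit at 41157455, 607 bp downstream of a listed start. The Dgkz and Ubash3b summits both scored 2.27, a value reached by 93.9% of peaks.

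The other 8 negative regulators had no peak. Dgka, the second diacylglycerol kinase in the list, was 46.0 kb from a summit near Suox. Csk, which locks Lck in its inactive form, was 112 kb away, and Ptpn22, the phosphatase that works with it, 308 kb. Ptpn6 (SHP-1) was 175 kb away, the ubiquitin ligase Cblb 245 kb, the lipid phosphatase Inpp5d (SHIP-1) 288 kb and the TULA protein Ubash3a 596 kb. Ptprc (CD45), which both primes and restrains Lck, was 1596 kb away.

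**Figure D1:**
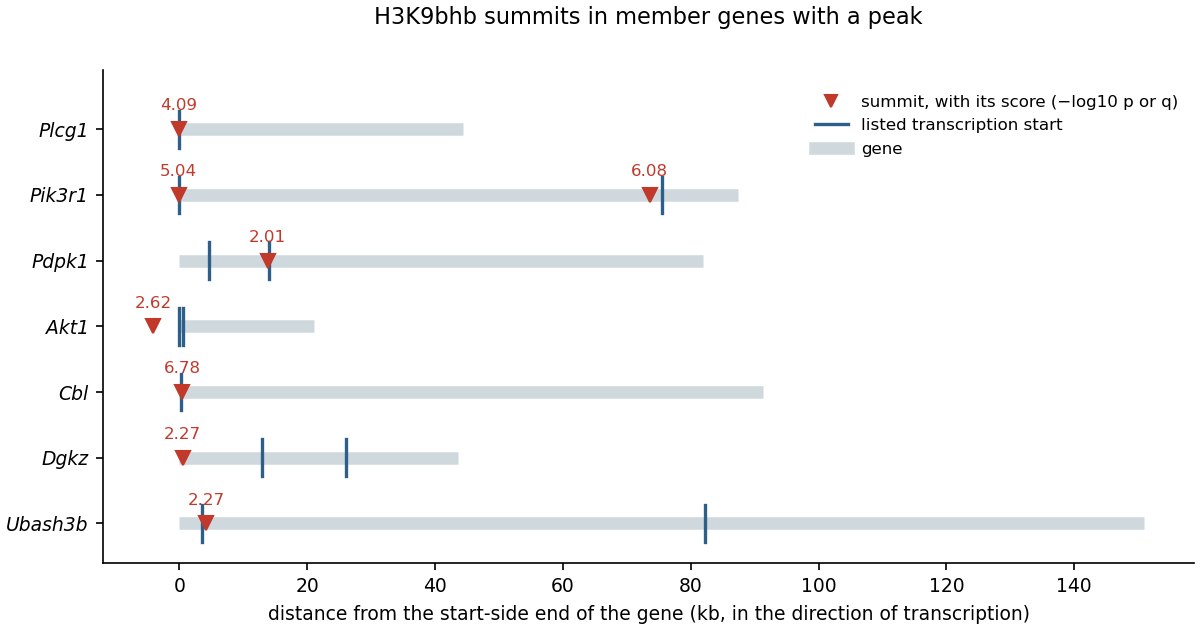
Positions of the 8 summits in the 7 members with a peak, as distance in kb from the start-side end of the gene in the direction of transcription; grey bars are genes, blue ticks are listed starts, red triangles are summits with their scores. The summits of Plcg1, Cbl and Dgkz and 1 of Pik3r1 sit at the start side, that of Akt1 lies 4112 bp upstream, and those of Pdpk1 and Ubash3b and the other of Pik3r1 lie near internal starts.

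Of the 8 member summits, 4 lay within 500 bp of a listed start of the same gene and 6 within 2 kb. With 2 kb windows around gene ends in place of the whole gene, 4 of 47 members (8.51%) had a peak, against 9.4% of all protein-coding genes. For the 44 members with a listed start (Sh2d2a, Malt1 and Itpr1 are not among them), 5 (11.4%) had a summit within 2 kb of it, against 9.58% of 17492 genes, and 4 (9.09%) within 500 bp, against 8.4%. Scores were low: 6 of the 8 member peaks scored below the median of the list and 4 below its lower quartile. Among the top-scoring 50% of peaks, 2 members (4.26%), Cbl and Pik3r1, had a peak, against 5.77% of all genes. Just inside the limit of 5 kb lay Akt1 at 4112 bp, and just outside it Braf at 10.5 kb, Stim1 at 11.5 kb and Akt2 at 17.5 kb.

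**Figure D2:**
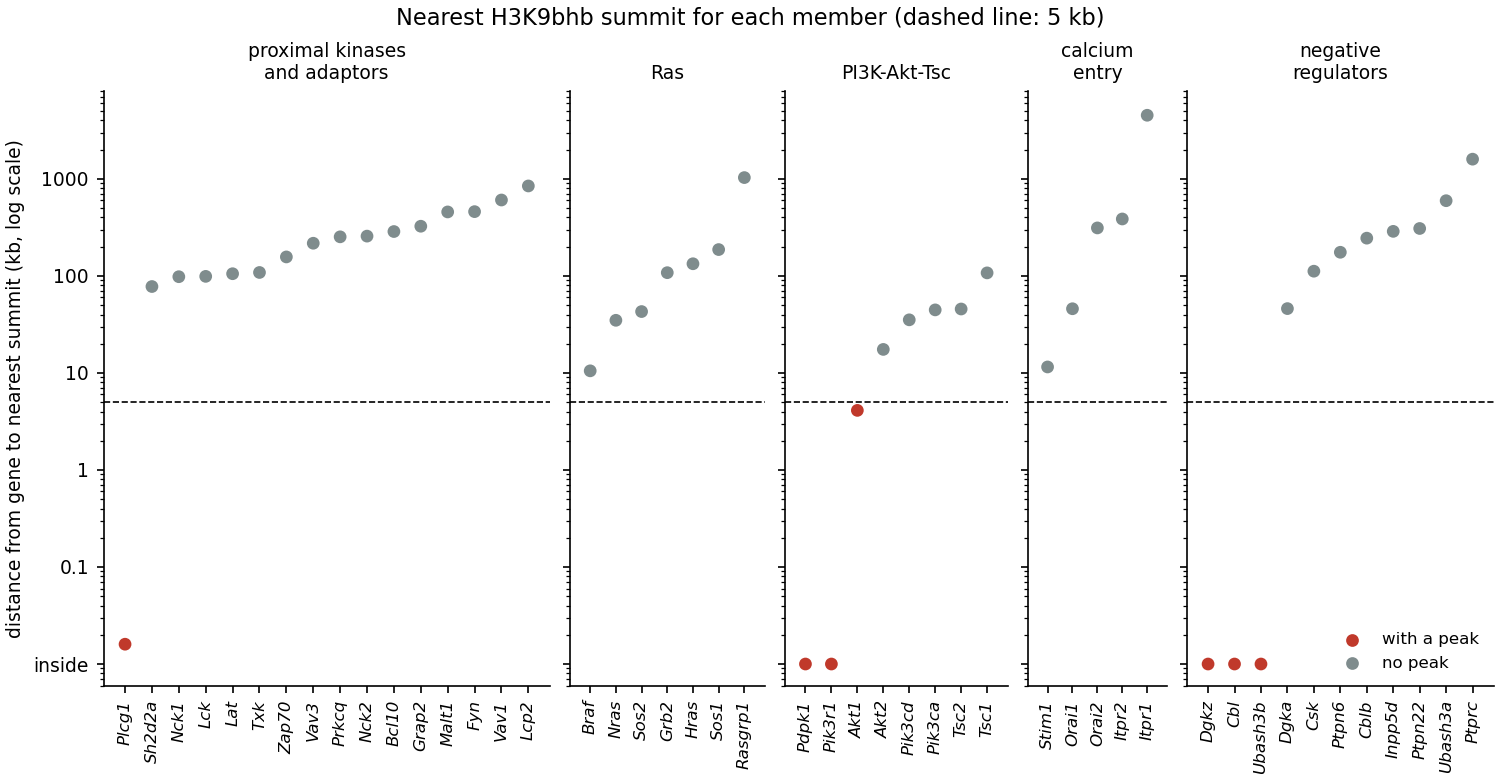
Distance from each of the 47 members to the nearest summit (kb, log scale, genes with a summit inside drawn at the bottom), by branch; red points have a peak, grey points do not, and the dashed line is 5 kb. Between Akt1 and Braf no member falls, and 27 of the 40 members without a peak are over 100 kb from a summit.

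Long genes offer more room for a summit. Members had a median length of 53.4 kb, against 17.1 kb for all protein-coding genes, and ranged from 4.09 kb (Hras) to 394 kb (Itpr2). Of all genes longer than the upper quartile of 44.3 kb, 17.9% had a peak, and of the 32 members in that range 5 had one (15.6%). Of the 9 members between 17.1 and 44.3 kb 2 had a peak, against 13.4% of all genes of that length. Of the 5 members between 5.65 and 17.1 kb 0 had one, against 10% of all genes of that length, and Hras, the 1 shorter member, had none, against 4.2%.

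For the 32 and 9 members of these lengths, the counts of 5 and 2 lay within 1 gene of the 5.73 and 1.2 that the shares of all genes would give. The branches differed in counts. The PI3K-Akt-Tsc branch had 3 of 8 and the negative regulators 3 of 11, and the proximal, Ras and calcium branches had 1 of 16, 0 of 7 and 0 of 5. At the background of 11.4% these branches would hold 0.909, 1.25, 1.82, 0.796 and 0.568 genes, in the same order. This background makes no allowance for promoter CpG content, which differed between branches and is given further on. With 5 to 16 genes a branch, the counts of 0 and 1 are near the background and the differences between branches were not tested. The PI3K count also depended on where the window was drawn: within 2 kb of gene ends it was 1 of 8 (Pik3r1; 12.5%, against 9.4% of all genes), and counting a summit only for the gene with the nearest end it was 2 of 8, without Akt1.

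A further 96 genes of the same pathway were counted in the same way, to see whether the branches looked alike outside the 47. Of these, 18 had a peak (18.8%, exact interval 11.5 to 28, covering counting error only), against 11.4% of all protein-coding genes. The list was chosen with earlier results of these data known, so it is no independent check and the interval is no test. The median length of the 96 genes was 63.2 kb, and of all genes longer than 44.3 kb 17.9% had a peak. Among the top-scoring 50% of peaks, 7 of the 96 had a peak (7.29%, against 5.77% of all genes). The 11 receptor and coreceptor chains, from Cd3e to Cd28 and Icos, had 0. The other proximal genes had 2 of 20, Tec (4.26), a kinase related to Txk, and Vav2 (2.51). The other Ras genes had 2 of 13, among them the adaptor Shc1 (5.24), whose summit lay 157 bp from a listed start of Pygo2. The other PI3K genes had 3 of 10, among them the regulatory subunit Pik3r3 (4.26) and the catalytic subunit Pik3cb (2.08).

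The other calcium genes had 6 of 14 and the members of that branch 0 of 5, against 11.4% of all protein-coding genes. The lists differ in make-up. The members are Stim, Orai and IP3 receptor genes, and the others also hold genes that act below calcium entry, such as Nfatc2, Nfatc3, Ppp3cc and Calm3. The highest score was at Nfatc2 (7.95), a transcription factor activated by calcium, with a summit 19068 bp downstream of the nearest listed start. Itpr3 (6.78) and Nfatc3 (5.11) had summits 165 and 188 bp downstream of a start. Ppp3cc (3.85), a catalytic subunit of calcineurin, had a summit 204 bp inside a gene end. The summit of the calcium sensor Stim2 (3.17) lay 2996 bp upstream of its start and 276 bp from a listed start of Gm30601. That of the calmodulin gene Calm3 (2.14) lay 223 bp inside the transcript end. The other negative regulators had 5 of 28: the diacylglycerol kinase Dgke (7.89), the lipid phosphatase Inppl1 (7.66), the Csk-binding adaptor Pag1 (5.04), the tyrosine phosphatase Ptpn2 (4.22) and the Akt phosphatase Phlpp1 (3.51). Together with the members, 25 of 143 pathway genes (17.5%) had a peak, against 11.4% of all protein-coding genes. The 11.4% makes no allowance for length. Of all genes longer than 44.3 kb 17.9% had a peak, and the median lengths of members and other pathway genes were 53.4 and 63.2 kb.

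**Figure D3:**
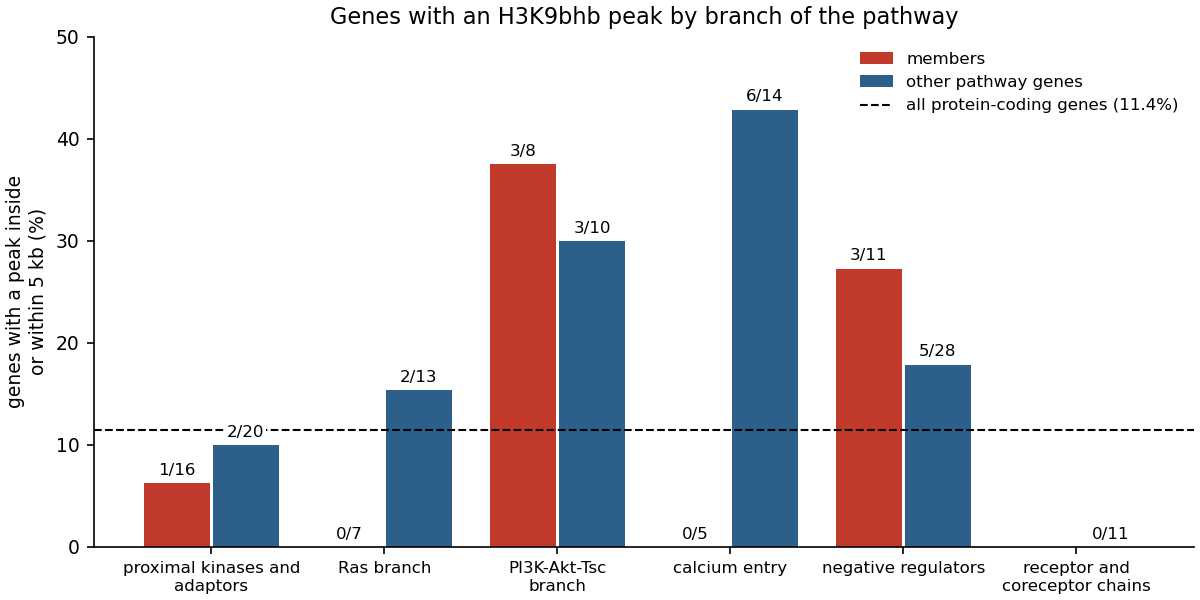
Share of genes with a peak inside or within 5 kb (%), by branch, for the 47 members (red) and 96 other pathway genes (blue), with counts above the bars and the 11.4% of all protein-coding genes as a dashed line. PI3K genes and negative regulators lie above the line in both lists and the other calcium genes in theirs. The other bars differ from the line by about 1 gene or less. The line makes no allowance for gene length or promoter CpG content, and the differences were not tested.

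Related genes of the same role were also set side by side. The comparison of 15 families formed from genes of both lists was chosen after the values were seen and carries no test. In 11 of them some genes had a peak and others had none, and in 0 did every gene have one. In 4 (the Src family kinases, the Ras and Sos genes and the Orai channels) no gene had one. In all, 13 of the 40 family genes had a peak, against 11.4% of all protein-coding genes. At such shares a small family with a peak mostly also holds a gene without one, so these counts show nothing particular to relatives. Ubash3b had a peak and Ubash3a had none, and likewise Cbl but not Cblb, Akt1 but not Akt2, and Dgkz and Dgke but not Dgka and Dgkd. The summit counted for Akt1 lay nearer to Zbtb42. For several members the peak was at a relative outside the 47: at Vav2 and not at Vav1 or Vav3, at Tec and not at Txk, at Itpr3 and not at Itpr1 or Itpr2, at Stim2 and not at Stim1, at Inppl1 (SHIP-2) and not at Inpp5d (SHIP-1), and at Pik3cb and not at Pik3ca, Pik3cd or Pik3cg. The Stim2 summit lay nearer to a listed start of Gm30601, and the Pik3cb score of 2.08 was reached by 98.5% of peaks. Of the members in these families, Lck, Txk, Vav1, Ubash3a, Inpp5d and Pik3cd, without a peak, are best known from blood cells. So is Tec, outside the 47, which had a peak. Vav3, Pik3ca, Akt2, Stim1 and Itpr1, known from many tissues, had none.

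**Figure D4:**
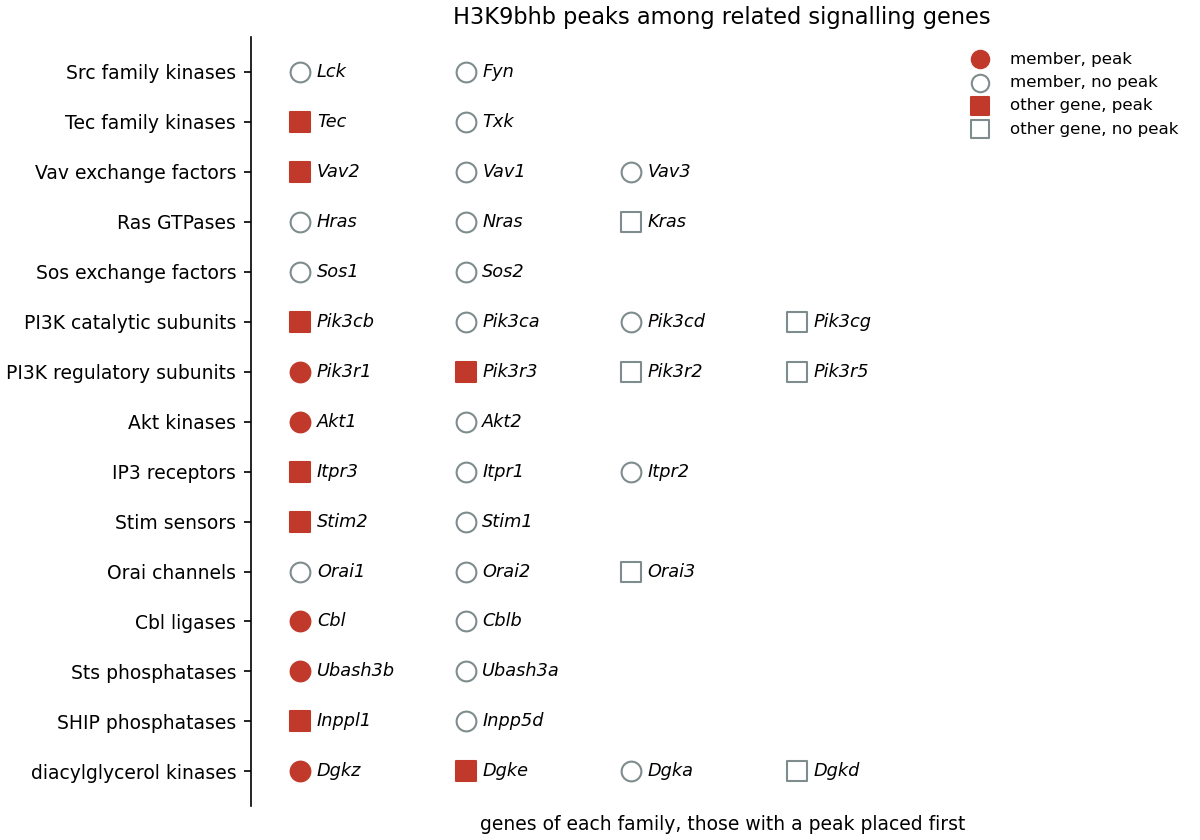
Peaks among 40 genes of 15 families, one family per line; filled symbols have a peak, open symbols have none, circles are members and squares are other pathway genes. In 11 families filled and open symbols stand side by side, and 4 have open symbols alone. Of the 40 genes 13 have a peak, against 11.4% of all protein-coding genes.

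Members best known from blood cells were also counted apart. This grouping was made from general knowledge with the peaks already known, so its count is a description that supports nothing, and it was not applied to the other pathway genes. Of these 16 genes (Lck, Zap70, Txk, Lat, Lcp2, Grap2, Vav1, Sh2d2a, Prkcq, Rasgrp1, Pik3cd, Ptprc, Ptpn22, Ptpn6, Ubash3a and Inpp5d) 0 had a peak, against 7 of the other 31 members (22.6%) and 11.4% of all protein-coding genes, at which 1.82 of 16 genes would have one. Since the group was formed with the peaks known, these shares do not measure a difference. Lengths were similar, with medians of 52.6 kb for the blood-cell genes and 64.6 kb for the others. The median distance to the nearest summit, drawn from the same peak list, was 270 kb for the blood-cell genes and 46.0 kb for the others.

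Promoter CpG content differed between these groups, which were formed with the peaks known. CpG content was measured as the number of CpG over that expected from the C and G of the 300 bases, taking for each gene the listed start with the highest ratio. A promoter was called CpG-rich at a ratio of at least 0.6 and at least 50% G and C. Of the blood-cell members with a listed start 3 of 15 were CpG-rich (Prkcq, Rasgrp1 and Pik3cd, median ratio 0.31), against 27 of 29 other members (median 0.85). Of these CpG-rich members, 0 of the 3 and 6 of the 27 had a peak, against 20.1% of all genes with a CpG-rich promoter. The 7 members with a peak had a median ratio of 0.91, between 0.29 (Ubash3b) and 1.05 (Cbl), and 6 were CpG-rich. The 37 members without a peak had a median of 0.73, between 0 (Lcp2) and 1.08 (Sos2), and 24 were CpG-rich. The ranges overlapped widely.

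Across the genome, genes with a peak had a median ratio of 0.84 (2032 genes) and genes without one 0.55 (15460 genes). Of all genes with a CpG-rich promoter 20.1% had a peak, and of all others 3.71%. Among members the shares were 6 of 30 (20%) for CpG-rich promoters and 1 of 14 (7.14%) for the others, and among the other pathway genes 12 of 45 (26.7%) and 1 of 20. Members with CpG-rich promoters thus had peaks about as often as any gene of that class. The blood-cell group was formed with the peaks known, and peaks went with CpG content across all genes. Its CpG content is therefore not independent of how the group was chosen. No difference in peaks between blood-cell and other members was measured, and a part of CpG content in these counts was not tested. Among members with a listed start, CpG-rich promoters numbered 8 of 8 in the PI3K-Akt-Tsc branch and 5 of 11 in the negative regulators. They numbered 7 of 14 in the proximal, 6 of 7 in the Ras and 4 of 4 in the calcium branch. The part of CpG content in the branch counts was not tested.

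**Figure D5:**
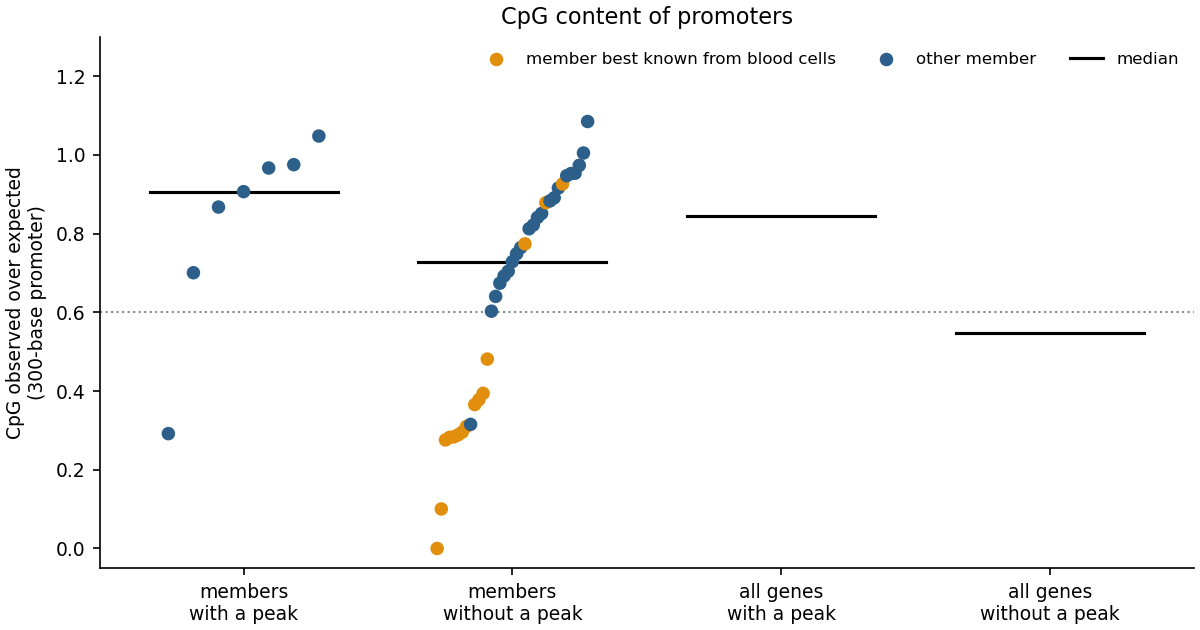
CpG observed over expected in 300-base promoters of members with a peak (7 genes), members without a peak (37 genes) and, as medians alone, all genes with and without a peak; orange points are members best known from blood cells, black lines are medians, and the dotted line is 0.6. Of the 15 orange points 12 lie below the dotted line, and all 15 stand among members without a peak. The orange group was formed with the peaks known, so its place in the plot is no result.

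Letter motifs of general promoter factors were searched on both strands in the 12 promoters of members with a peak, the 56 of members without one and all 21263 promoters of protein-coding genes; none of the letter strings contains another. The GC box (GGGCGG) was found in 7 of 12 promoters of members with a peak, in 29 of 56 without and in 46.2% of all. The CCAAT box (CCAAT) was found in 5 of 12, in 16 of 56 and in 38.2% of all. The TATA box (TATAAA) was found in 1 of 12, in 5 of 56 and in 12.6% of all. The ETS motif (CCGGAAG) was found in 0 of 12, in 3 of 56 and in 11.6% of all, and the E-box (CACGTG) in 0, 5 and 7.84%. The cyclic AMP response element (TGACGTCA) was found in 0 of 12, in 2 of 56, among them Zap70, and in 2.23% of all. No motif set the members with a peak apart beyond a few promoters, and several starts of 1 gene were counted separately.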

How the data were processed

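The data were 1 H3K9bhb ChIP library and 1 input library of β-hydroxybutyrate-treated CD8+ memory T cells, and the analysis used the ChIP peak list. Per the submitters' processing notes, the tools were MACS2 2.1.2, Bowtie2 2.3.5, Trimmomatic 0.39 and FastQC 0.11.8, and the build was mm10. Caller settings, input use and filters are not stated there. The authors deposited, for each summit of 1 bp, a −log10 value of p or of q, without a statement of which. Read counts were not analysed, so the depth behind a peak is unknown.

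Every summit was set against RefSeq genes of GRCm38.p6, the assembly that mm10 denotes. Starts and promoters came from a RefSeq promoter table of the same assembly, which matched 44 of 47 members, with 68 promoters. Genes were counted with a peak inside them or within 5 kb. Members and lists were chosen with earlier results of these data known. The text names every member and, of the 96 other pathway genes and the marker lists, every gene with a peak except some that are counted but not reported here; families and the blood-cell grouping were added after the values were seen. With no replicate, shares are set beside those of all protein-coding genes. The counting code was tested on simulated summits. Calculations used Python 3.11.15, matplotlib 3.10.9, scipy 1.17.1, pandas 2.3.3 and numpy 2.4.6.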

Additional observations from a re-analysis of the deposited data

How the results depend on the processing

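Of 54 recounts under other settings, 44 stayed within 1.5 times the main count and 10 moved further. The 7 members with a peak became 4 within 2 kb of gene ends only, 2 among the top-scoring 50% of peaks and 2 at a score of at least 5. They numbered 5 with no flank, 6 with 2 kb flanks, 7 with 10 kb flanks and 6 when a summit counted only for the gene with the nearest end. By branch, the PI3K-Akt-Tsc count of 3 became 1 within 2 kb of gene ends and 1 in the top 50% of peaks; that of the negative regulators, 3, became 1 in the top 50%; and that of the proximal genes, 1, became 0 with no flank and 0 in the top 50%. The Ras and calcium counts were 0 under each of the 7 settings run for branches. Settings that narrow the window or drop summits cannot raise a count of 0, and 10 kb flanks were the only wider window. These recounts of 0 are among the 44, so that number overstates how stable the counts are. The 18 other pathway genes became 7 in the top 50%, and the 4 members with a summit within 2 kb of a gene end became 1. Using fewer peaks or a narrower window lowers these counts by construction. No paired analysis was possible because there is 1 ChIP library and no test. The 1 library, with no untreated culture and no read counts per peak, limits every count.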
